A study of Mus musculus with 6 samples.

Results

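Long intergenic noncoding RNAs (lincRNAs) that were abundant in mouse testis were described in 6 RNA sequencing libraries, 3 from Tmc7 heterozygotes, which served as controls, and 3 labelled Tmc7 knockout. Of 55711 entries in the deposited table, 5559 carried the biotype lincRNA, and the 141 with a mean of at least 10 FPKM (a read count divided by gene length and library size) over the 6 libraries were taken. All mice were labelled C57BL6 and every library was made from testis RNA. The labels describe neither the knockout allele nor the age of the animals, and whether separate animals gave the libraries is not stated, so the p-values reflect only how these libraries scatter, which may be technical. Tmc7 encodes a transmembrane channel-like protein, and the series concerns its part in spermatid volume and Golgi-derived vesicles. The 141 RNAs were chosen by their mean FPKM in these same libraries, so their abundance is given as a description, and only the comparison between the groups was tested.

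LincRNAs are transcripts from their own promoters between protein-coding genes that are spliced and polyadenylated like mRNA but carry no long conserved reading frame. The testis transcribes more of them than most organs, largely in spermatocytes and round spermatids, whose chromatin is widely open. As spermatids elongate, histones give way to protamines, transcription stops, and the remaining RNA is translated, stored or discarded with the cytoplasm. Few testis lincRNAs have a known role, and most carry only a clone name (ending in Rik) or a gene model number (Gm). Among the 141 there were 84 Rik names, 44 Gm numbers and 6 names of genomic clones.

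The 6 libraries held 17059486 to 19343479 reads, worked back from the FPKM values. The library size that the FPKM values imply was not always this total. It was 1.645e+07 against 17059486 reads in control library 1, and 1.95e+07 against 18140921 reads in knockout library 3. The FPKM values thus carry a scaling beyond the read total. The 141 lincRNAs held 0.602% to 0.639% of control reads, and 0.653%, 0.540% and 0.579% of those of knockout libraries 1, 2 and 3. They made up 56.8% of the FPKM of all lincRNA entries. Tmc7 itself was at 37.2 to 39.1 FPKM in the controls against 35.1 to 43.8 FPKM under the knockout label, so its transcript level does not check the labels, and directions below rest on the labels alone. Small and ribosomal RNA gene models held 0.0997% to 0.105% of the reads in the controls, 0.0949% in knockout library 1, and 0.335% and 0.281% in knockout libraries 2 and 3. Of 20 defining markers of elongating and elongated spermatids listed for this work, none was at 0, and of 20 round spermatid markers Actl7b alone was at 0.

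The annotation of the deposited table was checked first. All 141 were found in GENCODE M21 by Ensembl ID, 139 of them with identical coordinates and 139 as lincRNA, so positions are given in GRCm38. RefSeq placed 98 among long noncoding RNAs, 4 among protein-coding genes and 6 among pseudogenes, and 33 had no match there. The 4 that RefSeq calls coding were 4930571K23Rik, Gm15104, Gm2511 and Tmem250-ps. The longest reading frame from ATG to stop had a median of 65 codons, against 61 codons in the 1255 other lincRNAs tested. It reached 100 codons or more in 34 of the 141, a count not made for the other lincRNAs. The label lincRNA therefore describes the table's annotation, and for some entries RefSeq differs.

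The 141 genes resembled other lincRNAs in structure. Their median length was 842 bases (range 78 to 13039) against 887 bases in the 1255 other lincRNAs tested, with a median of 3 exons in both sets. In 83 only 1 transcript was annotated, and 10 had a single exon. A gene on the other strand overlapped 31 of the 141, and a gene on the same strand overlapped 13. Reads of these lincRNAs may be shared with the overlapping gene. Of the 141, 15 lay on chromosome 5, 14 on chromosome 6 and 5 on X. The nearest start of a protein-coding gene was at a median distance of 44979 bases, and 41 lay over 100000 bases from any coding start.

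A promoter window of 300 bases (250 before the annotated start to 50 after it, RefSeq, GRCm38.p6) was found for 86 of the 141. Some RefSeq starts lay far from the start in the deposited table, as by 29189 bases in Gm36617, 9378 in Gm21269 and 5088 in Gm31752. These windows stayed in the counts below. Windows had a median GC content of 51.0% and 4 CpG dinucleotides, against 52.7% and 7 in all 32851 windows. Words tied to germ-cell and core promoters were searched on both strands. CAGTTG, a form of the site of MYB proteins, whose member A-MYB drives meiotic genes, was in 21 of 86 windows (24.4%) and in 13.7% of all windows. Other forms of that site were not searched. TGACGT, found in the cyclic AMP response element read by CREM in spermatids, was in 12 (13.95%, all windows 7.51%), and GTTGCCA, part of the RFX site, in 6 (6.98%, all windows 4.38%). TATAAA was in 12 (13.95%, all windows 13.6%), GGGCGG in 23 (26.7%, all windows 35.7%) and CCAAT in 38 (44.2%, all windows 37.4%). A match is a run of letters and was not shown here to be bound.

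The windows of 5 lincRNAs are shown, the pair with the highest level first, then 2 whose values were lowest in knockout libraries 2 and 3, then the RNA with the smallest p among those with higher values in knockout. Each is read 5′ to 3′ on the strand of the gene, and capitals mark the 6 searched words on either strand. They lie at chr5:143165702-143166001 (minus strand), chr17:49113484-49113783 (minus), chr6:13413087-13413386 (plus), chrX:95733216-95733515 (minus) and chr5:136918896-136919195 (plus).
Rbakdn: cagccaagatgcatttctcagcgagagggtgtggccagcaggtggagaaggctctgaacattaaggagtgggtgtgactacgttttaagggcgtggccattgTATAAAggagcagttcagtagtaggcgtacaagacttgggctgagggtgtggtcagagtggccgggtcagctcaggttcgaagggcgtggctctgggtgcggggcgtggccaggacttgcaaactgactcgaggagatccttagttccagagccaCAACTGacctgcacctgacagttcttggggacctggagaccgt
1700008K24Rik: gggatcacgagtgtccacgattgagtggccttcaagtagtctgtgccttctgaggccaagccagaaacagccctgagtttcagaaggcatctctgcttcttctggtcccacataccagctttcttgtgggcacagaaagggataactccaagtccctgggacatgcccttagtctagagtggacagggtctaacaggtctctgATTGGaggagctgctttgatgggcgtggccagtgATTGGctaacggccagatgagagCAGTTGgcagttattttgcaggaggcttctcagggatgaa
1700016P04Rik: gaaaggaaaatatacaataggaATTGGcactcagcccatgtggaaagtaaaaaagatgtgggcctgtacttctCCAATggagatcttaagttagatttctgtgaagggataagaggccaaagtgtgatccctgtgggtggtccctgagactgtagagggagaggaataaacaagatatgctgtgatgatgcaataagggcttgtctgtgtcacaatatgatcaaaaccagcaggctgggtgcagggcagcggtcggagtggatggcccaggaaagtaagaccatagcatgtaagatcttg
1700010D01Rik: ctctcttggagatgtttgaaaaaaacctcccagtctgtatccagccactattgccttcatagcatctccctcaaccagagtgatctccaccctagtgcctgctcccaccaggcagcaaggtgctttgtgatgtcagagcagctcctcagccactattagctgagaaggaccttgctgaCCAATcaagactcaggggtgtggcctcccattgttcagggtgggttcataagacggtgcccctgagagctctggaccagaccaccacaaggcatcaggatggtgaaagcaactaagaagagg
4933404O12Rik: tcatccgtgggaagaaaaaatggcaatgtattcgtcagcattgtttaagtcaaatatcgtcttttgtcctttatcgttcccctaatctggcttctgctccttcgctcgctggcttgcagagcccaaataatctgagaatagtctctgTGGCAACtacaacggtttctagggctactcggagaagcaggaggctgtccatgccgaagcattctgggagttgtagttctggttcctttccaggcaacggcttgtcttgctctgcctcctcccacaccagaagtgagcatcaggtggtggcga
The MYB word lay just after the annotated start in both of the most abundant RNAs, from position 7 in Rbakdn (as CAACTG) and from position 10 in 1700008K24Rik, counting the start as 0. The windows of 1700016P04Rik and 1700010D01Rik held CCAAT words only, the latter from position -72. The window of 4933404O12Rik held the RFX word (as TGGCAAC) from position -103.

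Levels ran from 10.1 to 492 FPKM with a median of 17.2. Only 5 RNAs reached 100 FPKM, 15 lay between 50 and 100 FPKM, and 89 lay under 20 FPKM. The 10 highest held 37.7% to 40.8% of the summed FPKM of the 141 in each library. Rbakdn, described in the table as the noncoding downstream neighbour of the zinc finger gene Rbak, ranked 53 among all genes by mean FPKM. It was at 558, 455, 481 FPKM (control libraries) and 528, 396, 532 FPKM (knockout libraries), and the groups overlapped.

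1700008K24Rik, an uncharacterised RNA on chromosome 17 (49112263 to 49113535), was at 329.7, 336, 306 FPKM (control libraries) and 337, 268, 326 FPKM (knockout libraries). Knockout library 2 was lowest and the other 5 lay close together. 4930571K23Rik on chromosome 7 (125368861 to 125371013) was at 338, 315, 217 FPKM (control libraries) and 344, 244, 142 FPKM (knockout libraries). In both groups library 3 was the lowest, and the groups overlapped. 1700018B24Rik, a transcribed pseudogene in RefSeq, had means of 144 ± 15.0 and 135 ± 25.0 FPKM (SD, n = 3 each, control then knockout, an order kept below), and C2cd6b, named for a calcium-binding C2 domain, 144 ± 8.14 and 129.5 ± 16.7 FPKM.

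The next 5 by level spanned 72.0 to 90.1 FPKM. 4930449C09Rik was at 98.1 ± 6.603 and 82.0 ± 15.4 FPKM, and 1700029M20Rik, whose 6 libraries ran only from 81.9 to 93.6 FPKM, at 85.3 ± 2.98 and 89.2 ± 4.64 FPKM. 1700020N18Rik was at 76.1 ± 8.58 and 72.6 ± 6.65 FPKM. 1700016P04Rik on chromosome 6 stood out by its spread, at 107, 93.8, 78.7 FPKM (control libraries) and 110.2, 40.7, 35.9 FPKM (knockout libraries). Knockout library 1 was the highest of the 6 and knockout libraries 2 and 3 the lowest. On the log2(FPKM + 1) scale knockout minus control was -0.75, with a 95% interval of -1.69 to 0.18 (limma adjusted p = 0.868). With each library left out it ran from -1.25, without knockout library 1, to -0.46.

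**Figure D1:**
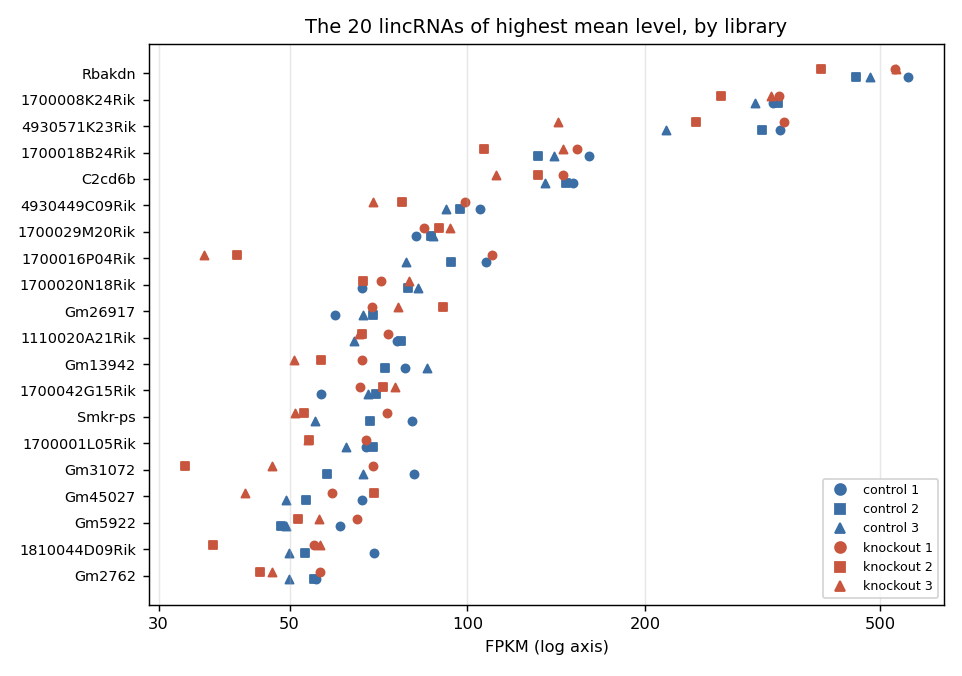
FPKM (log axis) of the 20 lincRNAs of highest mean, 1 point per library; blue points are controls, red points knockout, and the shape gives the replicate number. Knockout library 2 (red square) or 3 (red triangle) is the lowest point for many of them, as for 1700016P04Rik at 40.7 and 35.9 FPKM.

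At the threshold of the rule, Gm21269, Tmem250-ps and 1700025D23Rik lay just inside at means of 10.2, 10.2 and 10.1 FPKM. Gm47757, 1700125G22Rik and Malat1 lay just outside at 9.97, 9.92 and 9.82 FPKM. Malat1, an abundant RNA of nuclear speckles in most tissues, was at 5.35, 10.7, 8.85 FPKM (control libraries) and 6.31, 15.4, 12.4 FPKM (knockout libraries).

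Well-studied lncRNAs of any biotype were mostly low. Of 68 listed, 63 names were in the table, 33 entries reached the mean of 0.5 FPKM needed for testing, and 1 was among the 141. That was 2900097C17Rik, the mouse Norad, a cytoplasmic RNA that binds Pumilio proteins, at 16.3, 18.5, 19.6 FPKM (control libraries) and 16.7, 18.8, 17.5 FPKM (knockout libraries). All values lay close together, but 44.7% of its 31-base words also occur in other genes, chiefly Gm7292, so reads may be shared. Tsx, an X-linked testis gene that the table lists as coding, was at a mean of 21.2 FPKM, Cep83os at 18.5 FPKM and Tug1, whose loss is known to cause male sterility in mice, at 10.2 FPKM. Among the 33, 21 (63.6%) had lower and 12 higher mean values in knockout, against 51.4% lower of all genes tested. Their median log2 difference was -0.05. By limma 0 passed, and 1 was lower and 1 higher at an unadjusted p under 0.05. Of all genes tested 2.38% were lower and 1.48% higher at that limit, so counts this small show no difference from all genes. By limma-voom 0 of the 33 passed.

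No abundant lincRNA differed between the groups at the threshold used. The question was which of them changed with loss of Tmc7. Each gene with a mean of at least 0.5 FPKM was tested on log2(FPKM + 1) with limma, and p-values were adjusted over all 19168 genes by the Benjamini-Hochberg method at 0.05. Of all genes tested 0% were called, and 0 of the 141 lincRNAs passed (smallest adjusted p = 0.868). At an unadjusted p under 0.05, 7 lincRNAs were lower, where 2.38% of all genes tested were, and 1 was higher, where 1.48% were. Of the 1255 other lincRNAs tested, 94 were lower and 16 higher at that limit. With limma-voom on the recovered reads 0.00486% of all genes were called and none was a lincRNA of the 141 (smallest adjusted p = 0.858). There 14 were lower and 1 higher at an unadjusted p under 0.05, where 2.22% and 1.60% of all genes were.

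The differences leaned to lower values in knockout. Of the 141, 116 (82.3%) had a negative log2 difference, against 51.4% of all genes tested and 71.0% of the 1255 other lincRNAs. The median log2 difference was -0.20 in the 141, -0.12 in the other lincRNAs, -0.01 in 4828 protein-coding genes of at least 10 FPKM and -0.01 in all genes tested. The median standard error of a single lincRNA was 0.18, close to the size of that median. In 9 lincRNAs every knockout value lay below every control value, where 4.41% of all genes did so, and in 2 above, where 4.15% did so. Among the 1255 other lincRNAs 113 lay wholly below and 16 wholly above, so such separation was not particular to the 141. These are counts over RNAs measured in the same 6 libraries, and no test was made over the list.

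**Figure D2:**
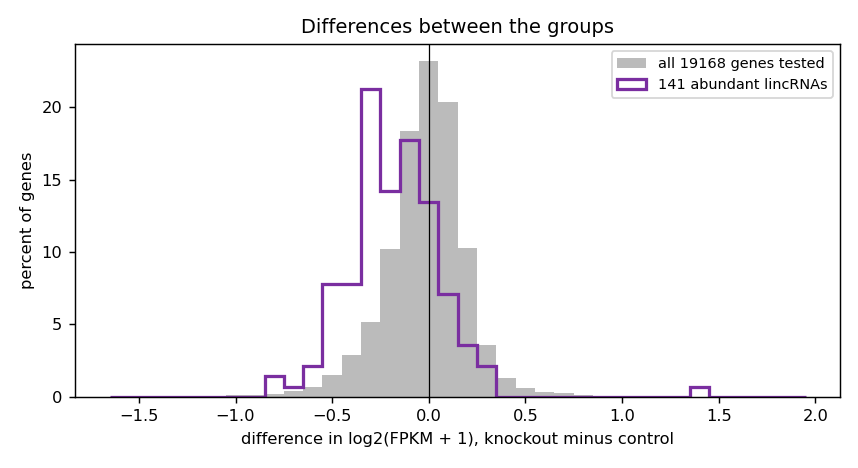
Histogram of the knockout minus control difference in log2(FPKM + 1) for all 19168 genes tested (grey) and the 141 abundant lincRNAs (outline), as percent of each set. The lincRNA outline lies to the left of the grey bars, with medians of -0.20 and -0.01, and the single value at 1.44 is 1700104B16Rik.

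The lean was seen in 2 of the 3 knockout libraries. Centred on the mean of the 6 libraries, the median level of the 141 was 0.20, 0.10 and 0.01 in the controls, 0.18 in knockout library 1, and -0.26 and -0.22 in knockout libraries 2 and 3. Knockout library 1 thus lay beside controls 1 and 2, and the groups overlapped. Knockout libraries 2 and 3 were both below the other 4 libraries in 65 lincRNAs (46.1%), against 17.5% of all genes tested, and both above them in 7 (4.96%), against 17.1%. Both were lowest in 28.0% of the other lincRNAs tested and in 23.9% of protein-coding genes of at least 10 FPKM. Both were highest in 2.63% and 18.6% of these sets. Knockout library 2 held the lowest value for 60 lincRNAs and knockout library 3 for 48, while the highest value was in control library 1 for 53 and in knockout library 1 for 38. Without knockout library 1 the median difference was -0.33, and 61 lincRNAs were lower at an unadjusted p under 0.05, where 10.4% of all genes were, with 0 called (smallest adjusted p = 0.140). Without control library 1 the median was -0.11 with 3 lower (all genes 1.73%), without knockout library 2 it was -0.11 with 4 lower (1.42%), and without knockout library 3 it was -0.14 with 6 lower (1.90%).

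Markers of spermatocytes and spermatids had their 2 lowest centred means in knockout libraries 2 and 3, and those of spermatogonia did not. The 20 markers of elongating and elongated spermatids, such as the protamines, had centred means of 0.42, 0.25 and -0.14 in controls and 0.31, -0.25 and -0.59 in knockout, and 20 of 20 had lower mean values in knockout. Their summed level ran from 13701 to 22877 FPKM in controls and from 10352 to 19680.3 FPKM in knockout. Of 19 round spermatid markers tested 18 were lower, with sums of 1484 to 1791 FPKM and 1341 to 1719 FPKM. Of 20 spermatocyte markers 18 were lower, with sums of 3103 to 3569 FPKM and 2634 to 3399 FPKM. Spermatogonia markers, of the cells that enter meiosis, were higher in 10 of 17 and lower in 7, with centred means of -0.02, -0.07 and 0.01 in controls and -0.09, -0.0022 and 0.17 in knockout. Sertoli markers, of the somatic cells that nurse germ cells, were higher in 16 of 19, with sums of 755 to 822 FPKM and 769.8 to 987 FPKM, none of the list at 0. Their centred means were -0.14, -0.12 and -0.0029 in controls and -0.12, 0.13 and 0.25 in knockout, so knockout library 1 lay beside controls 1 and 2. Peritubular myoid markers were higher in 9 of 10 and endothelial markers in 8 of 9. Blood markers were lower in 4 of 4, and those of epididymis and fat in 3 of 4. Leukocyte markers were higher in 13 of 13 (sums of 66.2 to 77.2 and 71.5 to 101 FPKM) and Leydig markers lower in 13 of 16 (533 to 552 and 346 to 586 FPKM). The Leydig centred means were 0.27, 0.063 and 0.12 in controls and 0.097, 0.053 and -0.60 in knockout. Only knockout library 3 was thus low for Leydig markers. None of these markers passed the test. In bulk testis, fewer cells of a type and less RNA per cell cannot be told apart, and the part of germ-cell content or of the ribosomal RNA share in the lincRNA values was not tested.

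**Figure D3:**
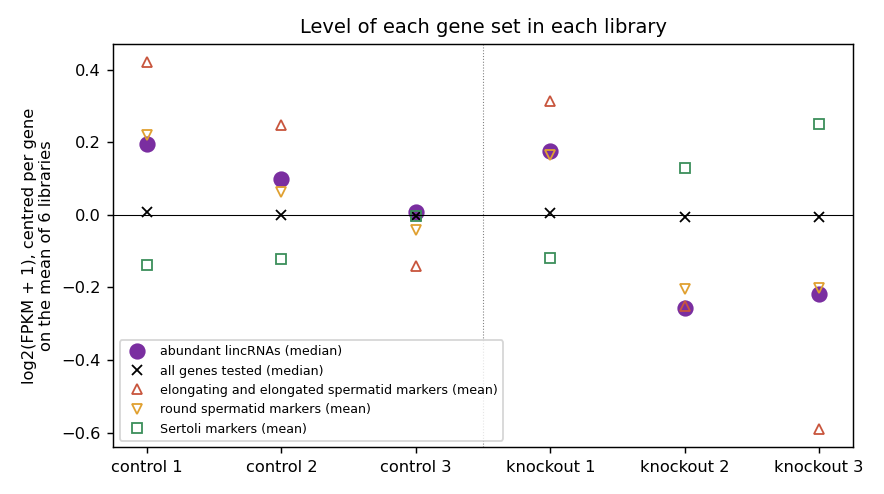
Level of each gene set in each library on the log2(FPKM + 1) scale, centred per gene on the mean of the 6 libraries; filled circles are the median of the 141 lincRNAs, crosses the median of all genes tested, and open symbols the mean of each marker list. The lincRNA median is at -0.26 and -0.22 in knockout libraries 2 and 3 and at 0.18 in knockout library 1, and the round spermatid markers lie near it in each library.

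**Figure D4:**
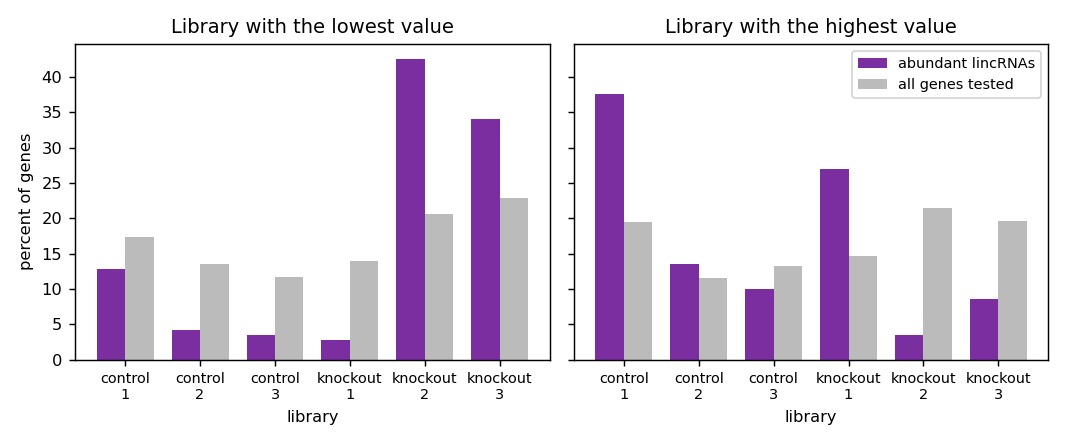
Percent of the 141 lincRNAs (dark bars) and of all genes tested (grey bars) for which each library held the lowest (left) or the highest (right) value. Knockout library 2 was lowest for 42.6% of the lincRNAs against 20.5% of all genes, and control library 1 was highest for 37.6% against 19.5%. Among the other lincRNAs tested, not drawn, these shares were 37.5% and 23.6%. Among protein-coding genes of at least 10 FPKM, also not drawn, they were 19.2% and 30.8%.

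The 5 lincRNAs of smallest p with lower values in knockout were followed by name. Gm47645, a single-exon gene on chromosome 12 (58813883 to 58815197), was at 25.0, 30.8, 26.2 FPKM (control libraries) and 16.7, 17.8, 11.9 FPKM (knockout libraries). Its groups did not overlap, and knockout library 1 lay with the other knockout libraries. Knockout minus control came to -0.80 ± 0.16 (standard error; 95% interval -1.17 to -0.42; limma adjusted p = 0.868). Gm13942 on chromosome 2 (111051320 to 111057574) was at 78.4, 72.4, 85.5 FPKM (control libraries) and 66.4, 56.6, 50.8 FPKM (knockout libraries). Its groups did not overlap either, and the difference was -0.44 ± 0.12 (standard error, limma adjusted p = 0.868). Both differences kept their sign with each library left out, from -0.90 to -0.63 for Gm47645 and from -0.54 to -0.35 for Gm13942.

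1700021F13Rik, whose start lies 24799 bases from that of the heart and limb factor gene Tbx5, was at 17.4, 15.1, 18.1 FPKM (control libraries) and 14.6, 7.88, 11.3 FPKM (knockout libraries), without overlap. 4930479D17Rik was at 12.4 ± 0.776 and 9.12 ± 1.96 FPKM, also without overlap. Gm31752, with 6 exons on chromosome 5, was at 28.2, 28.8, 23.4 FPKM (control libraries) and 25.6, 13.8, 14.02 FPKM (knockout libraries). Here knockout library 1 lay within the controls. The differences of these RNAs were -0.58, -0.43 and -0.62, each with a limma adjusted p of 0.868.

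Among those with higher values, 4933404O12Rik on chromosome 5 (136919146 to 136937112) was at 10.2, 12.6, 11.8 FPKM (control libraries) and 15.1, 13.7, 15.5 FPKM (knockout libraries). Every knockout value was above every control value, and the difference was 0.33 with a 95% interval from 0.09 to 0.58 (limma adjusted p = 0.868). 4930458A03Rik was at 12.8 ± 0.215 and 14.4 ± 0.843 FPKM, again without overlap. 4930469B13Rik was at 22.7 ± 3.98 and 29.0 ± 5.75 FPKM, and AC125141.3, the longest of the 141 at 13039 bases, at 9.63 ± 0.739 and 11.4 ± 1.18 FPKM. The control mean of AC125141.3 lay under the 10 FPKM of the rule, so it was taken only through its knockout values. Gm26917, a gene model on chromosome 17 (39843013 to 39846341), was at 59.7, 69.3, 66.6 FPKM (control libraries) and 69.0, 91.1, 76.2 FPKM (knockout libraries). Gm26917 had no match in RefSeq, and its longest transcript had a GC content of 69.1%, the highest of the 141. Its 2 highest libraries, knockout 2 and 3, also had the largest shares of small and ribosomal RNA, 0.335% and 0.281%, and the part of that share in its value was not tested. All 5 had a limma adjusted p of 0.868.

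The 5 lincRNAs on the X chromosome, which is silenced in meiosis and partly reactivated in spermatids, were looked at together after their values were seen. 1700010D01Rik was at 63.5, 54.3, 40.5 FPKM (control libraries) and 56.9, 23.5, 22.6 FPKM (knockout libraries). Gm15104 was at 37.5, 41.1, 33.2 FPKM (control libraries) and 37.99, 20.8, 19.9 FPKM (knockout libraries). In each, knockout libraries 2 and 3 were the lowest and knockout library 1 lay among the controls. 1700003E24Rik, Gm14773 and BC061195 were also lowest in knockout libraries 2 and 3, at 39.5 ± 9.20 and 27.8 ± 9.83 FPKM, 19.7 ± 4.39 and 14.6 ± 6.65 FPKM, and 17.02 ± 5.06 and 13.9 ± 5.07 FPKM. The log2 differences of the 5 lay between -0.72 and -0.29, and 0 passed. They are not 5 separate observations, because 1700003E24Rik shares 94.3% and BC061195 99.6% of their 31-base words with other genes, mostly with each other, and 1700010D01Rik shares 53.9% and overlaps Zc3h12b on the other strand.

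The 3 lincRNAs of widest range were low in some libraries and far higher in others, in a way not split by label. 1700104B16Rik on chromosome 8 (33730534 to 33731819, minus strand) was at 0.505, 21.9, 0.649 FPKM (control libraries) and 45.0, 17.1, 0.355 FPKM (knockout libraries). That is 6, 293 and 9 reads and 614, 214 and 5 reads, so both states occurred in both groups. None of its 31-base words occurs in another gene. Its start lies 14 bases from that of Gtf2e2, a subunit of the general transcription factor TFIIE, which is transcribed the other way and was at 78.2, 62.2, 70.3 FPKM (control libraries) and 65.6, 58.0, 73.4 FPKM (knockout libraries). The neighbour thus varied little across libraries in which the lincRNA went from 5 to 614 reads. The fitted difference of 1700104B16Rik was 1.44 with a 95% interval from -2.09 to 4.96 (limma adjusted p = 0.869).

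Gm48168 on chromosome 13 (65491789 to 65496793) was at 30.1, 31.6, 0.286 FPKM (control libraries) and 44.6, 0.158, 39.5 FPKM (knockout libraries). Control library 3 and knockout library 2 held 2 reads and 1 read, and the other 4 held 180 to 307 reads. Gm26754, which lies further along chromosome 13 (66244270 to 66451277) and shares 56.3% of the 31-base words of Gm48168, was at 11.1, 11.9, 0 FPKM (control libraries) and 4.30, 0, 11.1 FPKM (knockout libraries). It was thus listed at 0 in the same 2 libraries. 4930558F17Rik on chromosome 5 was at 16.6, 3.09, 18.8 FPKM (control libraries) and 19.6, 1.91, 14.1 FPKM (knockout libraries), low in library 2 of each group, and every 31-base word of it is also found in another gene. Of the 5371 genes of any kind with a mean of at least 10 FPKM, 10 had a highest library over 10 times the lowest. These 3 lincRNAs were among them, as were 3 processed pseudogenes. The cause of these states was not tested.

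**Figure D5:**
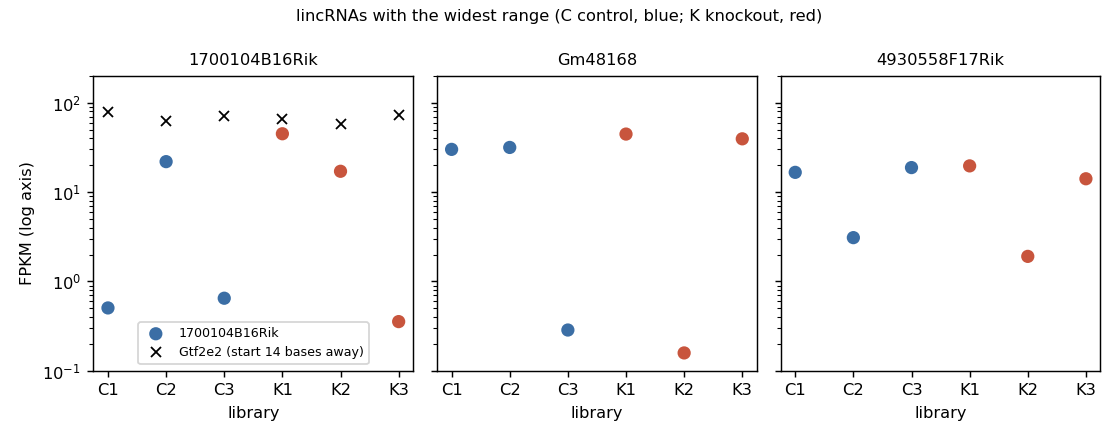
FPKM (log axis) in each library for the 3 lincRNAs of widest range, with controls in blue and knockout in red; crosses in the left panel are Gtf2e2, which starts back to back with 1700104B16Rik. Gtf2e2 stays between 58.0 and 78.2 FPKM while 1700104B16Rik runs from 0.355 to 45.0 FPKM.

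Over all 141, the spread was mostly moderate. In 91 of the 141 the highest library was under 2 times the lowest, and in 10 it was over 3 times. The coefficient of variation had a median of 12.01% in controls and 21.5% in knockout. Over all genes of at least 10 FPKM these medians were 7.51% and 11.7%. The coefficient was larger in knockout for 110 of 141 (78.0%), against 72.1% of all genes of at least 10 FPKM. Gm10076 had a wide spread among controls, at 38.6, 19.5 and 7.45 FPKM, and 21.3, 14.9 and 23.4 FPKM in knockout. It shares 82.2% of its 31-base words with Rpl41, a ribosomal protein gene at 237 ± 50.4 and 266 ± 10.6 FPKM, so its values are uncertain. In all, 9 of the 141 shared 50% or more of their words with other genes, and 97 shared none.

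Gm45027 shows how few reads can lie behind an FPKM value when the gene model is short. With 78 bases it was at 66.2, 53.3, 49.4 FPKM (control libraries) and 59.0, 69.5, 42.1 FPKM (knockout libraries), on 64 to 94 reads per library. Its whole spliced transcript (GENCODE M21), from chr11:77200125-77200819 on the minus strand, is shown for that reason and read 5′ to 3′.
Gm45027: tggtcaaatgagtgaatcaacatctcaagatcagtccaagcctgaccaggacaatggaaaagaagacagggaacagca

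For 15 of the 141, the start lay within 1000 bases of the start of a protein-coding gene, on the other strand in 14 and back to back in 10. Whether counting used strand is not known here, so reads of overlapping pairs cannot be told apart. The 5 of highest level were compared with their neighbours. 1110020A21Rik, which overlaps the phosphatase gene Ppm1b, was at 72.5 ± 7.14 and 68.4 ± 4.38 FPKM, and Ppm1b at 50.3 ± 3.01 and 48.7 ± 1.23 FPKM. 1110006O24Rik, whose start lies 92 bases from that of the vesicle transport gene Rab35, was at 27.6 ± 1.59 and 26.3 ± 5.22 FPKM, above Rab35 at 7.68 ± 0.204 and 7.77 ± 0.644 FPKM. 4933433G15Rik, which starts back to back with the kinase gene Mapk6, was at 21.3 ± 1.71 and 20.3 ± 1.91 FPKM, and Mapk6 at 85.0 ± 10.7 and 83.4 ± 16.2 FPKM.

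4930455B14Rik was at 23.3 ± 1.04 and 19.4 ± 4.68 FPKM, and 4930452B06Rik, which starts back to back with it, at 4.56 ± 0.283 and 4.65 ± 0.414 FPKM. 4921522P10Rik was at 16.9 ± 0.807 and 15.6 ± 2.88 FPKM, and Efnb2, a membrane ligand of Eph receptors, at 1.46 ± 0.143 and 1.43 ± 0.223 FPKM. These 5 pairs were taken for a high lincRNA level, which favours the lincRNA. Over all 14 pairs on the other strand, the mean of the lincRNA was above that of the coding gene in 6 and below it in 8. The log2 differences of the 5 lincRNAs lay between -0.28 and -0.07 and those of the 5 coding genes between -0.04 and 0.02, and 0 of the 10 genes passed (limma, adjusted p from 0.868 to 0.982).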

How the data were processed

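The 6 mouse testis libraries were prepared from Trizol-extracted RNA by a SMARTER mRNA-Seq kit, per the labels' protocols. A single deposited table holds the FPKM values that the authors computed, beside each gene's length, position and biotype. GRCm38 and mm10 are named as builds, per the submitters' processing notes. Aligner, counter, annotation release and strand handling: not given in the sources used here. Groups and replicate numbers came from the sample titles.

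The members and gene lists were chosen with earlier results of these data known. A mean of 0.5 FPKM or more admitted a gene to the test, made by limma 3.58.1 (R 4.3.3) on log2(FPKM + 1) with a mean-variance trend and no covariate. The Benjamini-Hochberg threshold was 0.05 over all genes. On this scale changes of low genes are understated. FPKM times gene length gave whole reads within 0.001 for 100% of values above 0. These reads gave depth and an alternative limma-voom test (mean of at least 10 reads). Sequence sharing is the percent of distinct 31-base words of a gene's GENCODE M21 transcripts found, on either strand, in those of other genes. Named by rule were the 10 highest members, the 5 of smallest p in each direction, known lncRNAs among the members, the 3 on either side of the threshold, the 3 of widest range and the 5 highest near a coding start on the other strand. The X-linked members, Gm45027, Gm10076, Gm2511, Rpl41, Gm26754 and Gm7292 were chosen after their values were seen. Alternatives were pseudocounts of 0.1 and 0.01, no filter, a mean of at least 2 FPKM, other scalings, no trend, array weights, the replicate block, each library left out, and member minimums of 8 and 12 FPKM. Added after seeing the data were control library 3 and knockout library 1 left out together, and members with under 50% of words shared.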

Additional observations from a re-analysis of the deposited data

How the results depend on the processing

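Over 17 alternatives, 0 of the 141 lincRNAs and 0 of the known lncRNAs were called, and the smallest adjusted p of a lincRNA ranged from 0.123 to 1. Over all genes 0 were called, except 1 by limma-voom on the recovered reads. The median log2 difference of the lincRNAs was negative in all 17, from -0.33 to -0.11 with 1 library left out, and -0.38 without control library 3 and knockout library 1, a choice made after seeing the data. With the median-of-ratios and quantile scalings it was -0.19 and -0.16, and -0.20 over members with under 50% of words shared. The count of lincRNAs lower at an unadjusted p under 0.05 went from 7 to 38 with array weights, 14 with limma-voom, 29 with the replicate block, 61 without knockout library 1 and 72 without that and control library 3 (all genes 2.38%, 6.57%, 2.22%, 5.25%, 10.4% and 11.2%). A pairing by replicate number was not taken up: deviations of same-numbered libraries correlated at 0.29, 0.04 and 0.20, and while each control correlated best with its own number, knockout 2 correlated best with control 3 (0.17). With the replicate block the lincRNA median was -0.20 and 0 genes were called. A member minimum of 8 or 12 FPKM gave 181 and 117 lincRNAs.

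Of 31 named lincRNAs followed over the settings, 12 changed sign in at least 1, all uncalled. With each library left out the log2 difference ran from -0.12 to 0.097 in Rbakdn, -0.13 to 0.034 in 1700008K24Rik, -0.61 to 0.024 in 4930571K23Rik, -0.20 to 0.056 in 1700018B24Rik, -0.23 to 0.042 in 1110006O24Rik, -1.30 to 1.98 in Gm48168, -0.10 to 0.023 in 2900097C17Rik, -0.22 to 0.029 in 4921522P10Rik, -0.95 to 0.65 in 4930558F17Rik and -0.016 to 0.17 in Gm21269. With quantile normalization Rbakdn was at 0.068 and 1700008K24Rik at 0.027, and with array weights Gm48168 was at -0.66. Without control library 3 and knockout library 1, 1700020N18Rik was at 0.0040, Gm48168 at -2.22, 2900097C17Rik at 0.060 and 1700104B16Rik at -0.25. The cause was not tested. Depth limits the RNAs with few reads, down to 1 read for Gm48168 in knockout library 2.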
